A study of Caenorhabditis elegans with 6 samples.

Results

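The genes described here encode the chaperones that a cell makes without a heat stress, together with those of its organelles. The set was fixed by name as hsp-1, hsp-3, hsp-4, hsp-6, hsp-60, hsp-90, daf-21, hsp-110, dnj-12 and dnj-13. Of these 10 names, 8 were rows of the deposited table of 14700 genes. The names hsp-90 and daf-21, the current and the earlier symbol of the cytosolic HSP90 gene, were not analysed here. Messenger RNA had been sequenced from the 3′ end (CEL-seq) in pools of 2000 cells, labelled as QR descendants, the cells that descend from the right Q neuroblast of Caenorhabditis elegans. The larvae were in the first stage and had fed for 7 hours after arrest. Control larvae were mab-5(gk670); huIs166; ayIs9, so both groups carried the allele gk670 of the Hox gene mab-5 and both of these transgenes. The larvae of the ΔN-BAR-1 group had huIs179 in addition, and the series names them ΔN-BAR-1Q; BAR-1 is the β-catenin of canonical Wnt signalling, and loss of its N terminus makes it constitutively active. The labels do not give the promoter that drives it or the number of transgenic lines. There were 3 libraries in each group, and nothing in the labels says whether they came from separate cultures, so a p-value measures only the spread between libraries, which may be technical.

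HSP70 chaperones bind exposed stretches of unfolded proteins and release them in a cycle driven by ATP. DnaJ proteins deliver the substrate and speed up ATP hydrolysis, and HSP110 proteins exchange the nucleotide so that the substrate is let go. The cytosol, the endoplasmic reticulum and the mitochondrial matrix each have their own HSP70, and the matrix also has the ring-shaped chaperonin HSP60. Stress in either organelle raises its chaperones through a dedicated unfolded protein response, for which hsp-4, hsp-6 and hsp-60 are standard reporter genes in this worm.

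Library totals ran from 68431 estimated transcripts in control replicate 3 to 254362 in control replicate 2, so that 1 count corresponded to between 4.11 and 16.47 CPM (counts relative to library size, with library sizes scaled by TMM normalisation). Markers of the labelled cells were present. The neuroblast POU factor gene unc-86 had 1092 to 1878 CPM, and all 14 listed Q lineage and neuron genes were detected. Of 9 intestinal markers, 2 (elt-2 and ges-1) had 0 counts in all 6 libraries, and the 9 summed to 20.6 to 114 CPM in control libraries and 25.4 to 54.4 CPM in ΔN-BAR-1 libraries. Of 12 hypodermal markers, 4 (dpy-7, rol-6, dpy-13 and wrt-2) had 0 counts throughout, and the 12 summed to 412 to 465 CPM in control libraries and 223 to 646 CPM in ΔN-BAR-1 libraries, with lin-26 at 160 to 346 CPM and mup-4 at 32.6 to 171 CPM. Body wall muscle markers summed to 8440 to 16848 CPM in control libraries and 6528 to 21049 CPM in ΔN-BAR-1 libraries. Most of each sum came from unc-54, at 2272 to 15580 CPM, and act-4, at 2920 to 6884 CPM. No other gene of this list exceeded 1235 CPM, hlh-1 had 0 counts throughout, and myo-3 had 0 or 1 count in each library. Others were detected in every library, such as mlc-3 (94.6 to 1235 CPM), pat-10 (27.2 to 576 CPM) and mlc-1 (16.3 to 412 CPM). Of the 11 that passed the filter on low counts, 8 had log2 fold changes of ΔN-BAR-1 over control below 0 and 3 above. Their median was −0.77, while unc-54 stood at 0.76, and 50% of all genes tested lay below 0. None of the 11 passed the test described below. Whether the RNA of these markers came from muscle cells was not tested. Reads of mab-5 were present in both groups, at 341 to 436 CPM and 176 to 386 CPM. Transgene expression could not be read from these data, since bar-1 had 1, 4 and 0 counts in control and 3, 4 and 8 in ΔN-BAR-1 replicates 1 to 3. In a pool, fewer cells of a type and less RNA per cell cannot be told apart.

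All 8 genes were detected in every library, and 7 passed the filter on low counts. None of the 7 passed the test of ΔN-BAR-1 against control (0 called by edgeR's quasi-likelihood test at a Benjamini-Hochberg adjusted p under 0.05, against 1.65% of the 3447 genes tested). None reached an unadjusted p under 0.05 either, where 11.6% of all genes tested did. DESeq2 and limma-voom also called 0. The 8 genes together made up 0.639% to 1.36% of the transcripts of a library. Their summed level was 11984 ± 3192 CPM in control libraries and 10219 ± 3388 CPM in ΔN-BAR-1 libraries (SD, 3 libraries a group).

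Each transcript is counted once at its 3′ end, so counts were compared between genes within a library without scaling by length. The cytosolic HSP70 gene hsp-1 was the most abundant of the 8 in all 6 libraries, and hsp-110 came next in all 6. Below them dnj-12, hsp-3 and dnj-13 did not keep an order. The gene dnj-12 lay above hsp-3 in 4 of 6 libraries and hsp-3 above dnj-13 in 4 of 6, while dnj-12 exceeded dnj-13 in all 6. The mitochondrial genes hsp-6 and hsp-60 followed, with hsp-6 the higher in 3 of 6 libraries. The endoplasmic reticulum gene hsp-4 was the lowest of the 8 in all 6 libraries.

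**Figure D1:**
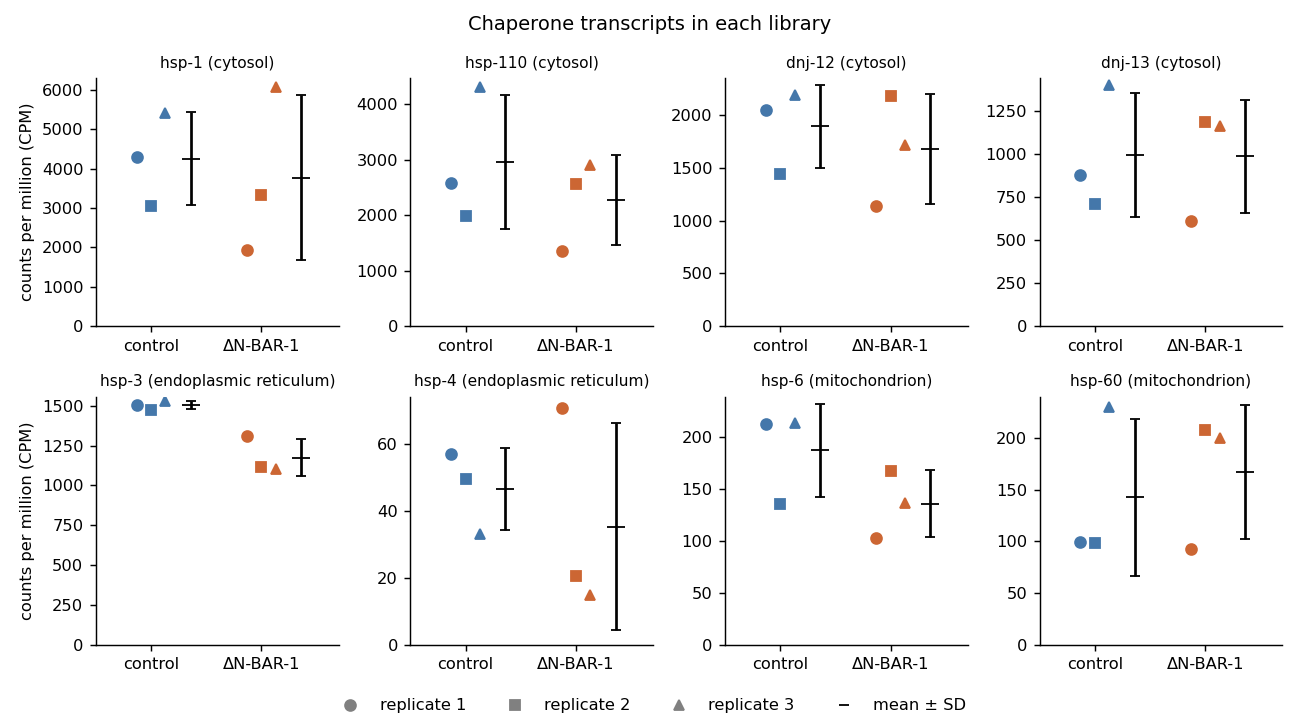
Level of each of the 8 genes in CPM (vertical axis, from 0) in control and ΔN-BAR-1 libraries, with 1 symbol per library and the mean ± SD of 3 libraries in black. Only hsp-3 has groups that do not overlap, and hsp-1 spans from 1930 to 6071 CPM.

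Among the cytosolic genes, hsp-1 encodes the constitutive HSP70 (HSC70), the worm's main housekeeping member of that family. Its level was 4304, 3060 and 5402 CPM in control replicates 1 to 3, and 1930, 3319 and 6071 CPM in ΔN-BAR-1 replicates 1 to 3. The lowest and the highest of the 6 values were both ΔN-BAR-1 libraries, and the groups overlapped. It ranked between 5th and 36th of all genes in its library. The fitted log2 fold change was −0.17 ± 0.39 (SE; adjusted p by edgeR = 0.934), with a 95% interval from 0.507-fold to 1.56-fold. Its value rested on single libraries, being 0.15 without ΔN-BAR-1 replicate 1 and −0.72 without ΔN-BAR-1 replicate 3.

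The gene hsp-110 encodes the nucleotide exchange factor of the cytosolic HSP70 system. Its level was 2578, 1982 and 4315 CPM in control and 1348, 2552 and 2908 CPM in ΔN-BAR-1 replicates 1 to 3, so that control replicate 3 was the high library and ΔN-BAR-1 replicate 1 the low one. The log2 fold change was −0.37 ± 0.37 (SE; adjusted p by edgeR = 0.806), with a 95% interval from 0.453-fold to 1.32-fold. Without control replicate 3 it was −0.01. Per hsp-1 transcript, a ratio that needs no scaling, hsp-110 stood at 0.599, 0.648 and 0.799 in control libraries and 0.699, 0.769 and 0.479 in ΔN-BAR-1 libraries, and the groups overlapped.

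The 2 cytosolic DnaJ genes belong to different classes: dnj-12 encodes a class A protein (DNAJA type) and dnj-13 a class B protein (DNAJB type), and both have been shown to work with HSP-1 and HSP-110 on protein aggregates. The level of dnj-12 was 2045, 1444 and 2190 CPM in control and 1136, 2181 and 1714 CPM in ΔN-BAR-1 replicates 1 to 3. The groups overlapped, with a log2 fold change of −0.17 ± 0.33 (SE; adjusted p by edgeR = 0.916) and a 95% interval from 0.551-fold to 1.44-fold. In RefSeq's annotation the 3′ end of dnj-12 overlaps that of tmem-107 on the opposite strand, and the counting of strand is not given in the sources used here, so its reads may include some of that gene. The level of dnj-13 was 881, 707 and 1400 CPM in control and 609, 1184 and 1165 CPM in ΔN-BAR-1 replicates 1 to 3. The means of its groups were nearly equal, at 996 ± 360 and 986 ± 327 CPM (SD, 3 libraries a group), with a log2 fold change of 0.01 ± 0.35 (SE; adjusted p by edgeR = 0.998) and a 95% interval from 0.609-fold to 1.66-fold. There were 1.47 to 2.32 dnj-12 transcripts for each of dnj-13, the lowest value in ΔN-BAR-1 replicate 3 and the highest in control replicate 1.

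The endoplasmic reticulum has a pair of HSP70 genes in the worm, hsp-3 and hsp-4, both homologues of mammalian BiP. The level of hsp-3 was 1506, 1477 and 1532 CPM in control and 1310, 1113 and 1102 CPM in ΔN-BAR-1 replicates 1 to 3. All 3 ΔN-BAR-1 libraries lay below all 3 control libraries, which made hsp-3 the only gene of the 7 tested whose groups did not overlap. Among all genes tested 17.4% had groups that did not overlap, and 7.08% had the ΔN-BAR-1 libraries lower. The means were 1505 ± 27.6 and 1175 ± 117 CPM (SD, 3 libraries a group), and the difference did not pass the test, with a log2 fold change of −0.36 ± 0.30 (SE; adjusted p by edgeR = 0.745) and a 95% interval from 0.509-fold to 1.20-fold. The spread of the control libraries, 1.83% of their mean, was below the error of counting, which for the 93 counts of control replicate 3 alone is 10.4%. That the control values lay so close together is therefore not a measure of how precisely hsp-3 was known. Over the alternatives the log2 fold change of hsp-3 stayed between −0.44 and −0.31, the narrowest range of the 7 genes.

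The gene hsp-4 is a BiP copy that endoplasmic reticulum stress induces through ire-1 and xbp-1. It had 8, 12 and 2 counts in control and 13, 4 and 3 counts in ΔN-BAR-1 replicates 1 to 3, which correspond to 56.8, 49.4 and 32.9 CPM and to 70.7, 20.3 and 14.7 CPM. The groups overlapped, and the gene did not pass the filter on low counts. Summed over libraries it had 22 counts in control, 49.5 CPM with an exact Poisson 95% interval from 31.0 to 74.9, and 20 counts in ΔN-BAR-1 libraries, 34.2 CPM with an interval from 20.9 to 52.8. These intervals cover counting error only. Tested without the filter, its log2 fold change was −0.51 (edgeR adjusted p = 0.811).

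For each hsp-3 transcript there were 0.0377, 0.0334 and 0.0215 transcripts of hsp-4 in control and 0.0539, 0.0183 and 0.0133 in ΔN-BAR-1 replicates 1 to 3. The hsp-3 copy thus made up nearly all of the BiP transcripts in each of the 6 libraries. The log2 ratio of hsp-4 to hsp-3 was −5.03 ± 0.42 in control libraries and −5.35 ± 1.02 in ΔN-BAR-1 libraries (SD, 3 libraries a group; exact permutation test, two-sided p = 0.700, the smallest possible being 0.1), and the difference changed sign without ΔN-BAR-1 replicate 3. Reads that match both copies could be assigned to either of them, and how they were treated is not given in the sources used here.

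Of the mitochondrial genes, hsp-6 encodes the matrix HSP70 (mortalin) and hsp-60 the chaperonin. The level of hsp-6 was 213, 136 and 214 CPM in control and 103, 168 and 137 CPM in ΔN-BAR-1 replicates 1 to 3. The groups overlapped, with means of 188 ± 44.9 and 136 ± 32.3 CPM (SD, 3 libraries a group), a log2 fold change of −0.42 ± 0.39 (SE; adjusted p by edgeR = 0.788) and a 95% interval from 0.423-fold to 1.31-fold. The level of hsp-60 was 99.4, 98.7 and 231 CPM in control and 92.4, 208 and 201 CPM in ΔN-BAR-1 replicates 1 to 3. Here the high values were those of control replicate 3 and ΔN-BAR-1 replicates 2 and 3. Its log2 fold change was 0.35 ± 0.45 (SE; adjusted p by edgeR = 0.879), the highest of the 7, with a 95% interval from 0.667-fold to 2.45-fold. Both genes rested on few molecules, with 13 to 33 counts of hsp-6 and 14 to 41 counts of hsp-60 per library.

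Per hsp-60 transcript there were 2.14, 1.38 and 0.929 transcripts of hsp-6 in control and 1.12, 0.805 and 0.683 in ΔN-BAR-1 replicates 1 to 3. The groups overlapped, since control replicate 3 lay below ΔN-BAR-1 replicate 1. The log2 ratio was 0.48 ± 0.60 in control libraries and −0.23 ± 0.36 in ΔN-BAR-1 libraries (SD, 3 libraries a group). The difference of −0.71 did not pass an exact permutation test (two-sided p = 0.2, adjusted over the 2 ratios tested 0.4, the smallest possible p being 0.1).

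**Figure D2:**
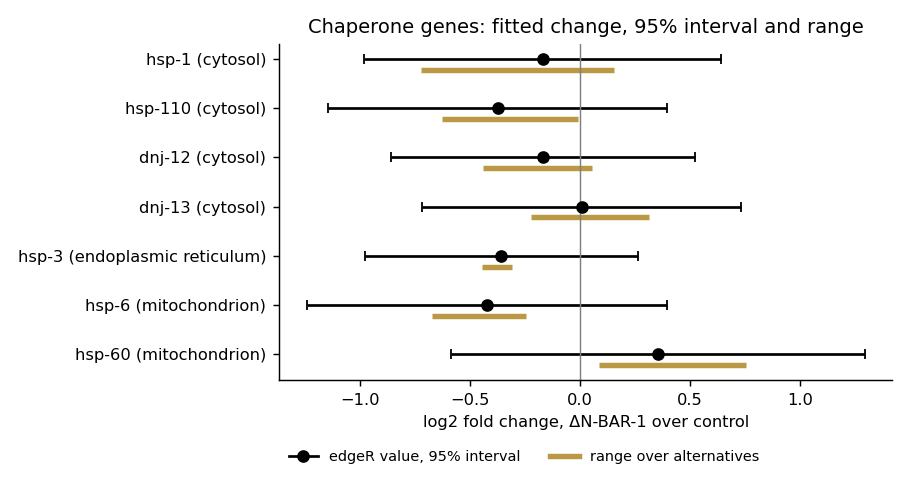
Log2 fold change of ΔN-BAR-1 over control (horizontal axis) for the 7 genes that passed the filter, as the edgeR value with its 95% interval (black) and the range over 16 alternatives (gold). All 7 intervals include 0, and the gold ranges of hsp-3, hsp-6 and hsp-110 lie below 0 and that of hsp-60 above it.

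The fitted log2 fold changes of the 7 genes ran from −0.42 for hsp-6 to 0.35 for hsp-60, with a median of −0.17, where the median of all genes tested was 0.00. Of the 7, 5 lay below 0, against 50% of all genes tested. The upper ends of the 95% intervals lay between 1.20-fold and 1.66-fold for the genes other than hsp-60. The lower ends were between 0.423-fold and 0.667-fold, so that a fall to near 0.5-fold lay inside the interval of several genes. The median of the 7 was −0.02 without ΔN-BAR-1 replicate 1 and −0.03 without control replicate 3.

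For the tested genes other than hsp-3, libraries of the same group differed by more than the group means did. In ΔN-BAR-1 replicate 1, 6 of the 7 genes had their lowest level (hsp-1, hsp-6, hsp-60, hsp-110, dnj-12 and dnj-13), where 22.5% of all genes tested were lowest in that library. These 6 stood at 0.435 to 0.595 times their mean in the other 5 libraries, whereas hsp-3 stood at 0.973 times and hsp-4 at 2.03 times. In control replicate 3, the shallowest library, 6 of the 7 genes had their highest level, all but hsp-1, against 18.4% of all genes tested. With total counts as the scale, 6 of 7 were again lowest in ΔN-BAR-1 replicate 1, against 19.4% of all genes tested. On that scale 4 of 7 were highest in control replicate 3, against 15.9% of all genes tested.

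Sums of other genes also had their extremes in ΔN-BAR-1 replicate 1. The 71 cytosolic ribosomal protein genes in the table, of which rpl-42 had 0 counts throughout, summed to 70868 CPM in ΔN-BAR-1 replicate 1 and to between 128130 and 144200 CPM in the other libraries. Muscle markers also had their lowest sum in ΔN-BAR-1 replicate 1, 6528 CPM, against 8440 to 21049 CPM in the others. Most of this sum is unc-54 and act-4, of which only unc-54 was lowest there (2272 CPM). Among the less abundant muscle markers, mlc-1 (16.3 CPM), mlc-2 (48.9 CPM), pat-10 (27.2 CPM), mup-2 (10.9 CPM) and unc-27 (16.3 CPM) were also lowest there. The marker unc-97 was highest there (424 CPM). In ΔN-BAR-1 replicate 3, unc-54 had used all 256 identifiers. The Q lineage and neuron genes had their highest sum in ΔN-BAR-1 replicate 1, 12181 CPM against 7259 to 9846 CPM. Highest there were ric-4 (2549 CPM), sem-4 (1516.5 CPM), snb-1 (1136 CPM), mig-13 (1033 CPM), mec-3 (571 CPM), mig-1 (462 CPM) and unc-104 (304 CPM). Lowest there were ham-1 (522 CPM) and egl-17 (16.3 CPM), and the remaining listed genes had neither extreme in that library. Between the groups, 4 of these 14 genes were called higher in ΔN-BAR-1 (edgeR adjusted p under 0.05), against 1.57% of all genes tested. The part of these differences in the chaperone values was not tested.

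**Figure D3:**
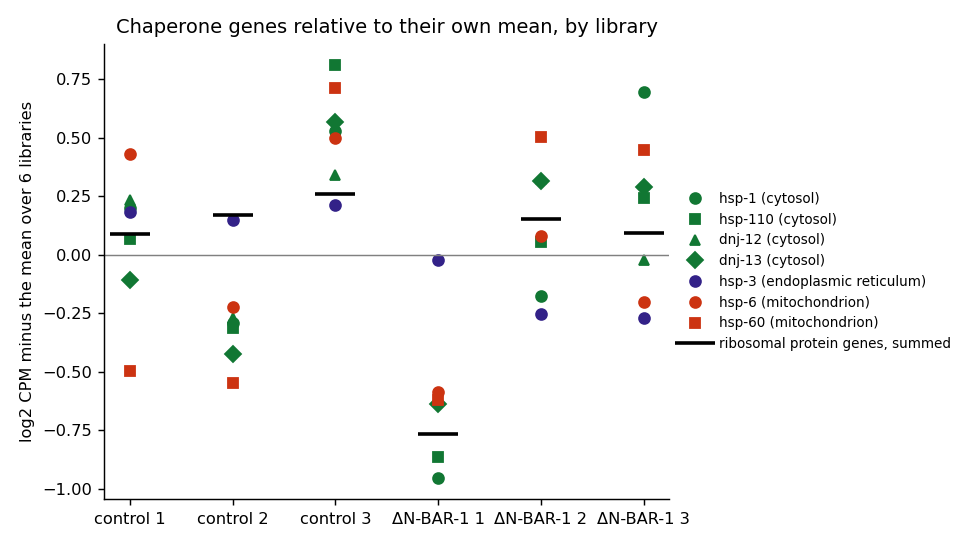
Log2 CPM of each of the 7 genes minus its mean over the 6 libraries (vertical axis) by library (horizontal axis), coloured by compartment, with the summed ribosomal protein genes as black bars. In ΔN-BAR-1 replicate 1 the chaperone genes other than hsp-3 lie with the ribosomal bar far below 0, and in control replicate 3 they lie above 0.

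Across the 6 libraries the cytosolic and mitochondrial genes had correlations with each other between 0.45 and 0.95, and hsp-3 lower ones with all of them. Pearson's r of log2 CPM was 0.93 for hsp-110 and dnj-13, 0.90 for hsp-1 and hsp-110, 0.95 for dnj-13 and hsp-60 and 0.91 for dnj-12 and hsp-6. For hsp-3 it lay between −0.38, with hsp-60, and 0.43, with hsp-6. These values describe 6 libraries that differ in depth and share 1 scaling, and ΔN-BAR-1 replicate 1 and control replicate 3 set much of their range. Among all genes tested, the gene most like hsp-1 was duxl-1 (r = 0.985), that most like hsp-110 was the cyclin-dependent kinase inhibitor gene cki-1 (0.997), and that most like hsp-60 was the zinc finger gene lin-26 (0.987), one of the hypodermal markers, whose part in the level of hsp-60 was not tested. The nearest to hsp-3 was hyls-1 (0.986), to hsp-6 R151.6 (0.978), to dnj-12 the hnRNP gene hrp-1 (0.981) and to dnj-13 vig-1 (0.981), each over 6 libraries. Each was the highest of the correlations with all other genes tested, so that a high value is built into the choice.

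How precisely the abundant genes could be counted depended on the molecular identifiers, of which 256 were possible. In ΔN-BAR-1 replicate 3, hsp-1 had used 254 of the 256, which gave an estimate of 1240 transcripts, and 1 identifier more would have given 1417. In the other libraries it had used between 185 and 242. The error from counting and from identifiers that meet by chance was 14.5% for hsp-1 in ΔN-BAR-1 replicate 3 and 7.81% to 8.94% in the others. The other genes had used at most 231, for hsp-110 in the same library, with 594 transcripts. Counted as distinct identifiers, which compress high values, the log2 fold change of hsp-1 was −0.63 in place of −0.17, and it again did not pass the test (edgeR adjusted p = 0.557).

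**Figure D4:**
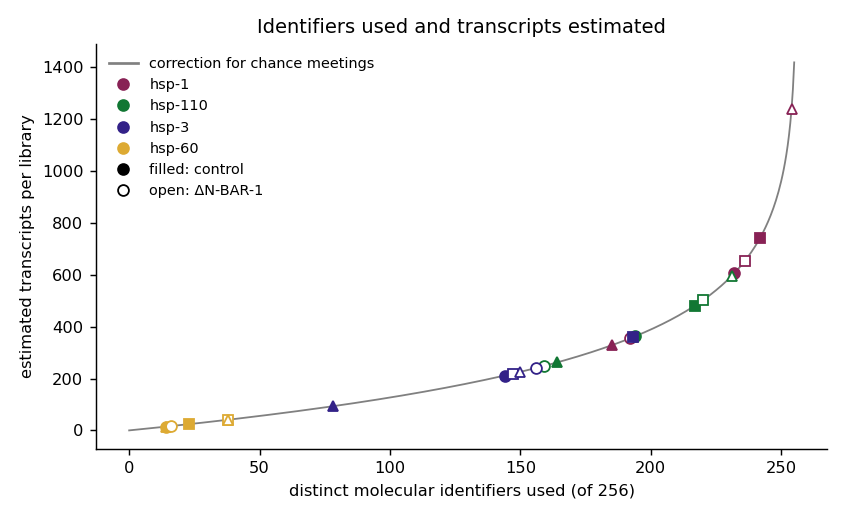
Estimated transcripts per library (vertical axis) against the number of distinct molecular identifiers used (horizontal axis) for hsp-1, hsp-110, hsp-3 and hsp-60, with filled symbols for control and open ones for ΔN-BAR-1 libraries, circles, squares and triangles for replicates 1 to 3, and the correction as a grey line. The highest point, hsp-1 in ΔN-BAR-1 replicate 3, lies on the steep end of the line at 254 identifiers.

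The partners of these chaperones were read from 7 lists of related genes, and no member of any list passed the test over all genes. Of 9 tested cytosolic co-chaperones, 4 lay above 0 and 5 below, with a median log2 fold change of −0.09. The co-chaperone gene sgt-1, a tetratricopeptide repeat protein, had 270, 354 and 181 CPM in control and 429, 488 and 612 CPM in ΔN-BAR-1 replicates 1 to 3. Its ΔN-BAR-1 libraries all lay above the control libraries, as in 10.4% of all genes tested, and it did not pass (log2 fold change 0.87 ± 0.33, SE; edgeR adjusted p = 0.234). The HSC70-interacting protein gene hip-1 stood at −0.50 ± 0.34, the phosphatase gene pph-5 at −0.66 ± 0.54 and the immunophilin gene fkb-6 at −0.36 ± 0.35 (edgeR adjusted p from 0.669 to 0.805), and of these pph-5 had all ΔN-BAR-1 libraries below the control libraries, as in 7.08% of all genes tested. Prefoldin and nascent chain factors, which receive proteins as they leave the ribosome, had 8 tested genes and a median of −0.06, with dnj-11, which is also a DnaJ gene, at −0.95, pfd-2 at −0.28, pfd-5 at 0.24 and pfd-1 at 0.22.

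Apart from dnj-12 and dnj-13 the table held 25 DnaJ genes, of which 14 were tested. Their median was 0.19, with 9 above 0 and 5 below. The values of those with the smallest p were 0.84 ± 0.46 for dnj-8, −0.95 ± 0.56 for dnj-11, 1.07 ± 0.70 for dnj-25 and −0.45 ± 0.41 for dnj-29 (SE; adjusted p by edgeR from 0.539 to 0.787). Without ΔN-BAR-1 replicate 1, dnj-25 stood at 0.04 and dnj-8 at 0.13. The summed level of these 25 genes was 2549 ± 101 CPM in control libraries and 2669 ± 176 CPM in ΔN-BAR-1 libraries (SD, 3 libraries a group). The means of dnj-12 and dnj-13 were 1893 and 996 CPM in control and 1677 and 986 CPM in ΔN-BAR-1 libraries.

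Of 12 tested chaperones and folding enzymes of the endoplasmic reticulum, 9 lay below 0 and 3 above, with a median of −0.19 and values from −0.58 for the protein disulfide isomerase gene pdi-1 to 0.33. The oxidoreductase gene ero-1 stood at −0.42 ± 0.46, the degradation factor gene sel-1 at −0.36 ± 0.44 and pdi-3 at −0.23 ± 0.31. The 16 genes of this list in the table summed to 7611 ± 797 CPM in control libraries and 6772 ± 595 CPM in ΔN-BAR-1 libraries (SD, 3 libraries a group), and the ranges overlapped (6725 to 8268 and 6392 to 7457 CPM). The calcium-binding chaperone gene crt-1 was the most abundant of them in both group means (3889 ± 538 and 3336 ± 530 CPM).

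Mitochondrial import factors, chaperones and proteases had 10 tested genes and a median of 0.20. The prohibitin genes phb-1 and phb-2, whose products form rings in the inner membrane, were the pair in this list whose ΔN-BAR-1 libraries all lay below the control libraries, as in 7.08% of all genes tested. The level of phb-1 was 178, 165 and 280 CPM in control and 97.8, 122 and 162 CPM in ΔN-BAR-1 replicates 1 to 3 (log2 fold change −0.64 ± 0.39, SE; edgeR adjusted p = 0.611). That of phb-2 was 178, 136 and 247 CPM in control and 125, 132 and 127 CPM in ΔN-BAR-1 replicates 1 to 3 (−0.48 ± 0.39; edgeR adjusted p = 0.740). The import channel gene timm-23 stood at 0.34 ± 0.35 and Y22D7AL.10 at 0.33 ± 0.38.

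Among the sensors and transcription factors that control chaperone genes, 4 of the 9 in the table were tested. The bZIP gene atfs-1, which drives the mitochondrial response, stood at −0.32 ± 0.38 (SE) and ubl-5 at 0.29 ± 0.51. The level of xbp-1, the factor that induces hsp-4, was 1406, 535 and 1252 CPM in control and 511, 1464 and 2262 CPM in ΔN-BAR-1 replicates 1 to 3. It thus spanned more than the difference between its group means of 1064 and 1412 CPM (log2 fold change 0.42 ± 0.51; edgeR adjusted p = 0.872). The library with the lowest xbp-1 had the highest hsp-4, on 13 counts, and a relation between them was not tested. The heat shock factor gene hsf-1 had 128, 132 and 148 CPM in control and 391, 275 and 284 CPM in ΔN-BAR-1 replicates 1 to 3. Its ΔN-BAR-1 libraries all lay above the control libraries, as in 10.4% of all genes tested, and at a log2 fold change of 1.23 ± 0.36 it stayed short of the threshold (edgeR adjusted p = 0.0832).

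**Figure D5:**
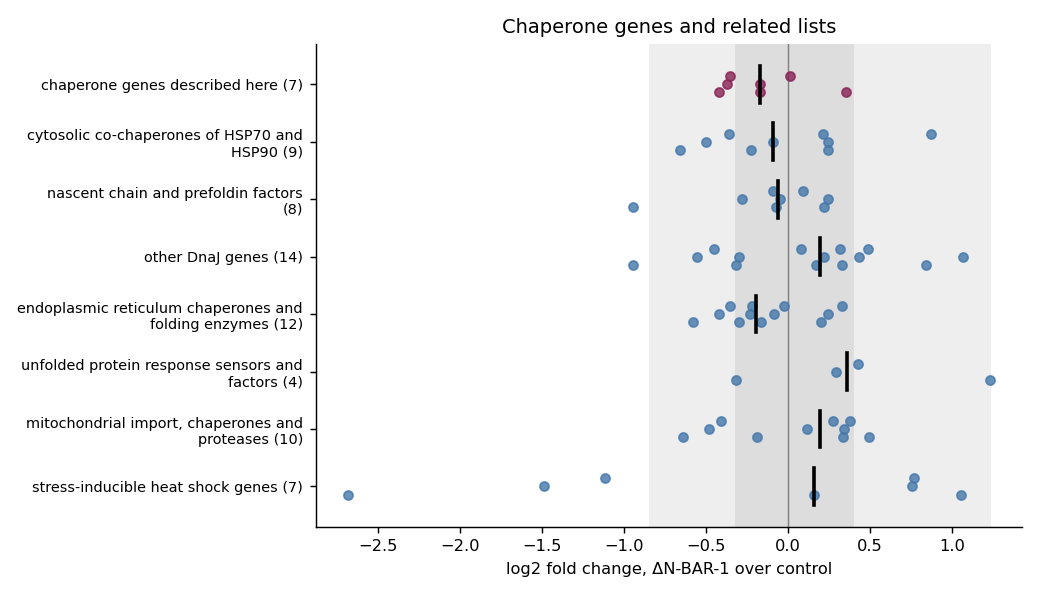
Log2 fold change of ΔN-BAR-1 over control (horizontal axis) for each tested gene of the chaperone set and of the 7 related lists, with black lines for medians and the number of genes in brackets. The dark band holds the middle 50% of all genes tested (−0.32 to 0.40) and the light band the range from the 5th to the 95th percentile (−0.84 to 1.23), and all 7 chaperone genes lie inside the light band.

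Of 17 stress-inducible heat shock genes in the table, 7 passed the filter and 3 had 0 counts in every library. Their sum varied more between libraries than that of the constitutive genes. Over the 17 genes it was 13586, 6811 and 7592 CPM in control and 3517, 7757 and 24961 CPM in ΔN-BAR-1 replicates 1 to 3, next to 11682, 8954 and 15316 CPM and 6599, 10746 and 13313 CPM for the 8 genes described here. Both sums had their lowest value in ΔN-BAR-1 replicate 1. In ΔN-BAR-1 replicate 3, F44E5.4 and F44E5.5 together gave 15658 CPM. There F44E5.4 had 3182 counts, the same as unc-54, which had used all 256 identifiers, so its level is poorly known. The small heat shock genes hsp-16.2 and hsp-16.41 stood at 0.77 ± 0.48 and 0.76 ± 0.38 on the log2 scale, hsp-16.1 at −1.48 ± 1.23 and F44E5.5 at −2.68 ± 0.90 (SE; adjusted p by edgeR from 0.305 to 0.779). Calls in this list depended on single libraries: without ΔN-BAR-1 replicate 1 hsp-16.2 and hsp-16.41 passed the test (1.21 and 1.11), without replicate 2 hsp-16.1 did (−4.33), and without replicate 3 F44E5.5 did (−2.23). Several of these genes have near-identical copies, between which reads cannot be divided with certainty.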

How the data were processed

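The values are estimated counts, deposited by the authors as one table without normalisation between libraries, from CEL-seq with CEL-seq2 libraries, per the labels' protocols; the sources used here name no aligner, annotation, build or counter, and no coordinates are printed. From the values, at least 99.9% of those above 0 in each library invert to whole identifiers (tolerance 0.02) under a correction with 256 possible identifiers, which ΔN-BAR-1 replicate 3 holds in a rescaled form. Estimated counts were rounded to whole numbers. Tests used edgeR 4.0.16 in R 4.3.3: TMM, filterByExpr by group at a min.count of 10 and a min.total.count of 15, the robust quasi-likelihood test over all 3447 genes with the group as the only term, and Benjamini-Hochberg adjustment at 0.05. Data were simulated with the same spread between libraries (dispersion) for all genes and both groups. There the steps called 14 of 94 genes with a true 2-fold change and 76 of 98 with a true 4-fold change. At this setting a change of 2-fold thus mostly went uncalled. The rate for the chaperone genes themselves was not simulated. DESeq2 1.42.0 and limma-voom (limma 3.58.1) were alternatives. Standard errors were derived from the F statistics. Ratios were taken as log2 of CPM plus 1. Members and lists were chosen with earlier results of these data known. The text names every member, up to 4 tested genes per list with the smallest p, the nearest gene to each member by Pearson's r of log2 CPM with a prior count of 1, and bar-1; crt-1 and the marker genes were named after their values were seen. Libraries of one group differed by more than counting error, which alone gives a chi-square per degree of freedom near 1. It was 2.34 to 2.7 between control libraries and 4.39 to 8.53 between ΔN-BAR-1 libraries. These values do not tell technical from biological spread. No sequence is shown, since no sequence table was used here.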

Additional observations from a re-analysis of the deposited data

How the results depend on the processing

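No chaperone gene was called in any of the 17 alternatives, and the lowest adjusted p of any of the 8 was 0.455, for hsp-4 without ΔN-BAR-1 replicate 1. Signs were kept in the 16 alternatives run per gene for hsp-3, hsp-6, hsp-60 and hsp-110, and in the 5 besides the unfiltered fit in which hsp-4 could be fitted, while hsp-1 lay above 0 in 2 of 16, dnj-12 in 1 of 16 and dnj-13 in 5 of 16. Leaving out single libraries gave −0.72 to 0.15 for hsp-1 and −0.90 to 0.075 for the difference in the log2 ratio of hsp-4 to hsp-3, which was 0.075 without ΔN-BAR-1 replicate 3; that of hsp-6 to hsp-60 stayed between −1.01 and −0.41. The count of changed genes, 57, was 101 without a filter, 35 with min.count 30, 9 with limma-voom, 113 at an adjusted p of 0.1, 17 without replicate 3 of both groups (chosen after seeing the data) and 16 to 121 without single libraries; the filters test other numbers of genes, and otherwise the cause was not tested. With the replicate number as a block it was 19; same-numbered libraries deviated together at −0.16, −0.08 and −0.04, which gives no sign of pairing. The stress-inducible list had 1 called gene (F44E5.5) without a filter and 1 with the block, and 0 to 2 without single libraries (hsp-16.2 and hsp-16.41 without ΔN-BAR-1 replicate 1); hsf-1 made 1 in its list at an adjusted p of 0.1. In control replicate 3, 3 counts equal 49.4 CPM, above the level of hsp-4 there.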

Other observations

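ΔN-BAR-1 replicate 3 had unequal or absent counts for some duplicated heat shock genes. The pair hsp-16.1 and hsp-16.11 had 0 and 0 counts there. They had 51 and 39, 32 and 21, and 9 and 7 in control replicates 1 to 3, and 4 and 7, and 41 and 36 in ΔN-BAR-1 replicates 1 and 2, so that 3 of the 6 libraries held fewer than 10 of each. The rows F44E5.4 and F44E5.5 had 3182 and 16 counts in ΔN-BAR-1 replicate 3, whereas they had 710 and 710, 367 and 398, and 96 and 74 in control replicates 1 to 3 and 124 and 117, and 130 and 103 in ΔN-BAR-1 replicates 1 and 2. The myosin gene unc-54 had the same 3182 counts there, with all 256 identifiers used. Whether hsp-1, hsp-3 or hsp-4, which have related copies too, were touched by this was not tested. These rows were picked after their values were seen.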
